A study of Mus musculus with 2 samples.

Results

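The amino acid transporter genes examined here were the protein-coding genes of the mouse RefSeq gene table (GRCm38.p6, mm10) whose symbols belong to the solute carrier families Slc1, Slc3, Slc6, Slc7, Slc36, Slc38 and Slc43. The symbol rule took 64 genes of the 21536 protein-coding genes analysed. Of these, 63 are carriers or carrier subunits. The other is Slc7a6os, which lies opposite Slc7a6 and encodes a protein that is no transporter. Trimethylation of histone H3 at lysine 4 (H3K4me3) was measured at their promoters by chromatin immunoprecipitation and sequencing (ChIP-seq) in E14TG2a.4, an embryonic stem cell line from a male mouse of strain 129/Ola. The labels give the source as embryonic with an age of 3.5 days. The line was untreated as far as the labels say, and 2 biological replicates formed 1 group, so no condition was compared with another. Both replicates came from 1 line and 1 donor, and their differences therefore hold no variation between animals.

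Amino acid carriers move amino acids across the plasma membrane or the membranes of organelles. Some serve nearly every growing cell: the Slc7 light chains pair with the heavy chain Slc3a2 and exchange amino acids, while the sodium-coupled Slc1 and Slc38 carriers load the cell with small neutral amino acids and glutamine. Others clear glutamate, GABA, glycine or monoamines from synapses, or absorb amino acids across the epithelia of kidney tubule and gut. H3K4me3 marks the start regions of transcribed genes, and in embryonic stem cells also many start regions of silent developmental genes, mostly where the DNA is rich in the dinucleotide CG, so a peak is not a measure of transcript level.

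Marked genes are those where a peak of the authors' replicated list, which rests on both replicates and their pool, overlapped the 1 kb on either side of the gene's 5′ end. Its signal is the authors' own ratio of ChIP over control for the highest peak there. Its width is that of the widest domain there, after peaks less than 1 kb apart had been joined. Signals were compared between genes only within a list. As a check of the labelled cell type, all 8 stem cell markers, among them Pou5f1, Sox2 and Nanog, carried a promoter peak with a median signal of 59.4. Of the lists for other cell types, 5 of 8 fibroblast markers, 4 of 6 neuron markers and 3 of 8 kidney and gut epithelium markers were also marked, with median signals of 15.7, 26.1 and 11.5. These shares lie near or below the 66.6% of all genes analysed that were marked. Of the fibroblast genes, Fn1 had a signal of 61.7, Thy1 23.4, Col1a1 15.7, Col1a2 13.7 and Pdgfrb 5.75, and Col3a1, Postn and Dcn had no promoter peak. On mm9, 7 of the 8 stem cell markers were marked, all but Nanog, against 68.4% of all genes. All 6 neuron markers, 5 of 8 fibroblast markers and 3 of 8 kidney and gut epithelium markers were marked there too. The median mm9 ratios of the stem cell and neuron markers were 14.36 and 13.95, so the mm9 ratio did not set these 2 lists apart. Their median widths differed, with 20200 and 2500 bp on mm9 and 10899 and 2349.5 bp in the replicated list. The part of other cells in the transporter values was not tested.

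Promoter sequences show how different these genes are before any value is given. They are from RefSeq on GRCm38.p6 and run 5′ to 3′ over the 250 bases before a RefSeq start, with every CG dinucleotide in capitals. Slc38a2 (chr15:96699729-96699978, minus strand, 30 CG) and the RefSeq start of Slc3a2 (chr19:8713898-8714147, minus strand, 11 CG) stand for carriers of general uptake with wide domains. Slc36a1 (chr11:55204090-55204339, plus strand, 12 CG) stands for a lysosomal carrier with a narrow domain, and Slc6a17 (chr3:107518019-107518268, minus strand, 18 CG) for a neuronal carrier with a peak of moderate signal. Slc7a11 (chr3:50443614-50443863, minus strand, 2 CG) and Slc3a1 (chr17:85028097-85028346, plus strand, 6 CG) had no peak in the replicated list.
Slc38a2: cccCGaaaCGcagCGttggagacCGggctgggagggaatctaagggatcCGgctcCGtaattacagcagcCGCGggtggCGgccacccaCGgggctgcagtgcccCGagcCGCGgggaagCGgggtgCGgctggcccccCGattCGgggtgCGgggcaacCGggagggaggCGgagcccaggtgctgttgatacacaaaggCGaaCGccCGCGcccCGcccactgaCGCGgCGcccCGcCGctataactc
Slc3a2: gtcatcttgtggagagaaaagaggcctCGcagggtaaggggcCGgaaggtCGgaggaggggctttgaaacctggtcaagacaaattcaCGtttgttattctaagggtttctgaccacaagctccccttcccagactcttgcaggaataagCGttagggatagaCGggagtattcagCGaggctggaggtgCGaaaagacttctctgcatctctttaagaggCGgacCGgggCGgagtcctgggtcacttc
Slc36a1: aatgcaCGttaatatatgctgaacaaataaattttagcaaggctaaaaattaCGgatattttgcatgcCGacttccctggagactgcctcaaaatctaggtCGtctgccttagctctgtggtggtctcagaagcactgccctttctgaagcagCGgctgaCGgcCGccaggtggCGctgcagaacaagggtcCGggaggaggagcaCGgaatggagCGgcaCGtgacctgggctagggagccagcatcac
Slc6a17: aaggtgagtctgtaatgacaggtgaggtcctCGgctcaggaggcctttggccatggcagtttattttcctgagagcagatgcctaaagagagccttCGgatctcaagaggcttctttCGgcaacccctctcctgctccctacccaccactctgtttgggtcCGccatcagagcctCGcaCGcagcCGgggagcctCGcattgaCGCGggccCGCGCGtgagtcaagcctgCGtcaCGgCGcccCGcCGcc
Slc7a11: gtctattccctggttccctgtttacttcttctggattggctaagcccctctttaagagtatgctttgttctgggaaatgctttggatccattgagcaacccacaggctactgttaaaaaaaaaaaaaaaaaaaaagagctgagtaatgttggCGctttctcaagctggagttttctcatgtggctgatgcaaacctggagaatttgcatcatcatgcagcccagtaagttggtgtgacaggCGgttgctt
Slc3a1: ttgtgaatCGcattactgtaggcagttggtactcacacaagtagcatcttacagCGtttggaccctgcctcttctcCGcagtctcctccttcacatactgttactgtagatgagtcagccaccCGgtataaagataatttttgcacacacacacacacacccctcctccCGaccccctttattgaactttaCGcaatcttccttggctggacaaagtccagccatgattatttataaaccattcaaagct

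Of the 64 genes, 45 were marked (70.3%, Wilson 95% interval 58.2 to 80.1%), against 66.6% of all genes analysed. As a family the transporters thus stood close to the background. In the list of replicate 1, 47 were marked against 66.9% of all genes, and in that of replicate 2, 46 against 66.8%. A peak was present in both replicate lists for 43 of the 64 genes, and for 14215 of the 21536 genes analysed. It was in neither list for 14 of the 64. The marked transporters carried less signal than marked genes at large, with a median of 27.0 against 43.0, and 11 of the 45 lay above the median of all marked genes. Their median domain width was 2011 bp against 2427 bp. The same order of median signals was seen in replicate 1, where they were 24.2 and 38.4, and in replicate 2, where they were 24.0 and 36.5. In the pooled mm9 list the medians were closer, 14.5 for the transporters and 15.9 for all marked genes. For the 43 transporters with a peak in both replicate lists, the log2 ratio of replicate 2 over replicate 1 had a median of -0.11 and lay between -0.68 and 0.45, so none differed by more than 2-fold.

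**Figure D1:**
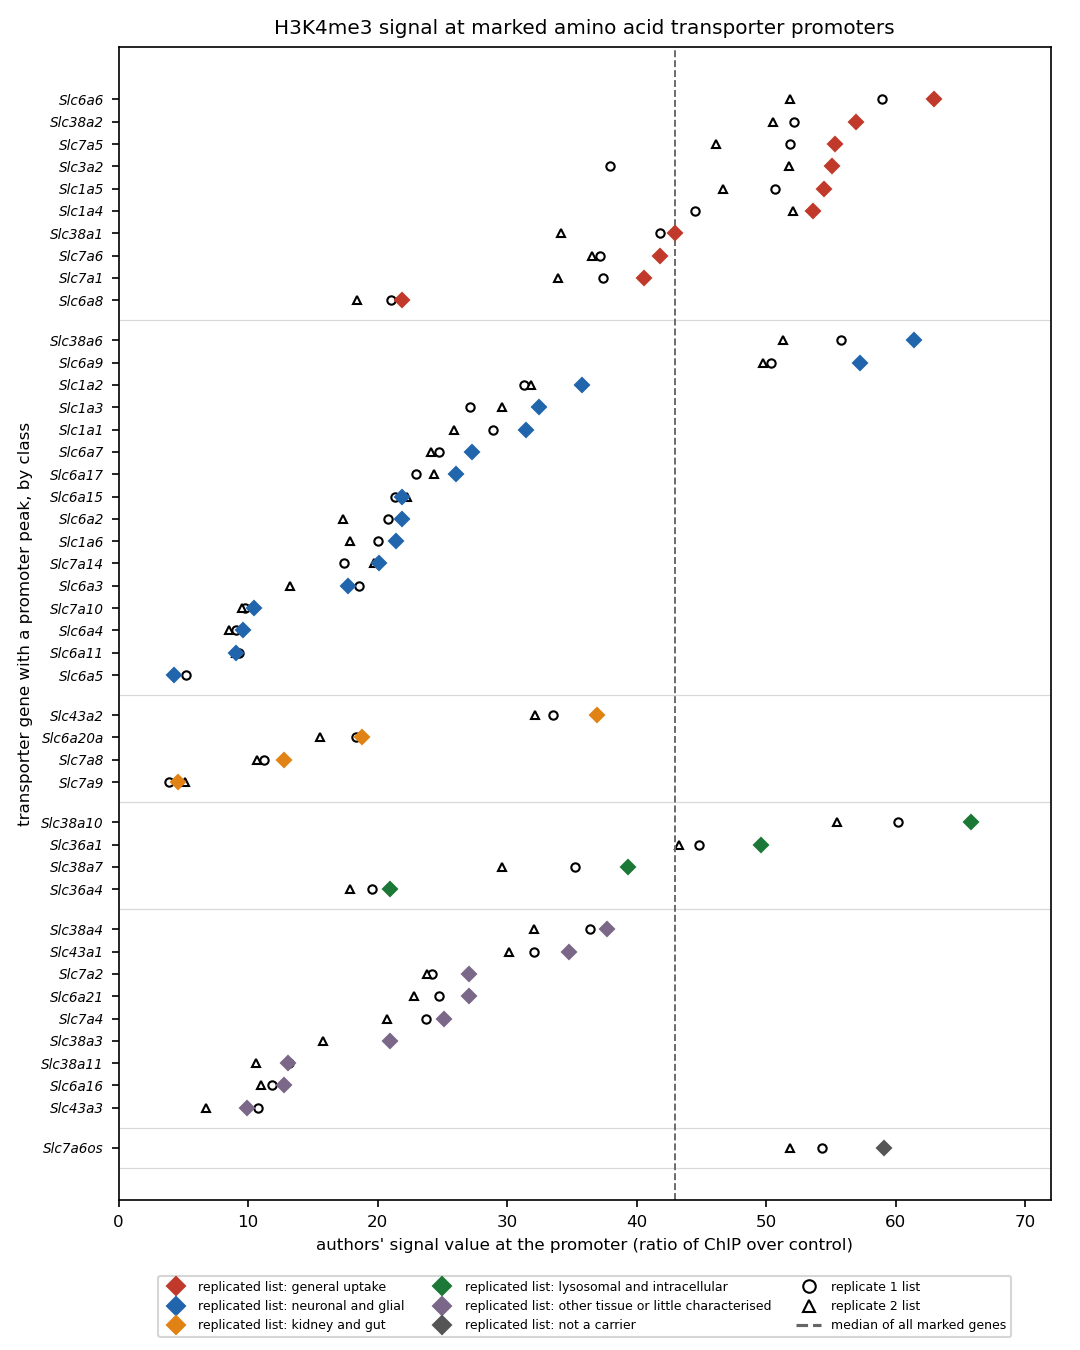
Promoter signal value (horizontal axis, ratio of ChIP over control) of 44 marked transporter genes (vertical axis, ordered by class), with circles for replicate 1, triangles for replicate 2, diamonds for the replicated list and a dashed line at the median of all marked genes (43.0). All general uptake carriers shown except Slc6a8 have diamonds above 40, and all neuronal carriers except Slc38a6 and Slc6a9 lie below 36; a missing circle or triangle means no peak in that replicate's list.

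The 63 carriers were divided by where each is best known to act. Of the 11 carriers of general uptake 10 were marked (90.9%, 95% interval 62.3 to 98.4%), and of the 20 neuronal and glial carriers 17 (85.0%, 64.0 to 94.8%). Only 4 of the 15 kidney and gut carriers were marked (26.7%, 10.9 to 52.0%). The background of 66.6% lay outside the interval of the kidney and gut class and inside those of the lysosomal class, with 4 of 5 marked (80.0%, 37.6 to 96.4%), and of the carriers of other tissues, with 9 of 12 (75.0%, 46.8 to 91.1%). It also lay just inside the neuronal interval and the general uptake interval. The intervals treat genes as independent, and the classes were chosen with earlier results of these data known. They therefore describe the counts and decide no difference from all genes. In replicate 1 the counts for general uptake, neuronal and kidney and gut carriers were 10, 18 and 6, and in replicate 2 they were 10, 16 and 6. In the authors' pooled list 7 of the 15 kidney and gut carriers were marked (46.7%, 24.8 to 69.9%), and the 68.0% of all genes marked in that list lay inside the interval. No test was made between classes, since genes are not replicates.

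**Figure D2:**
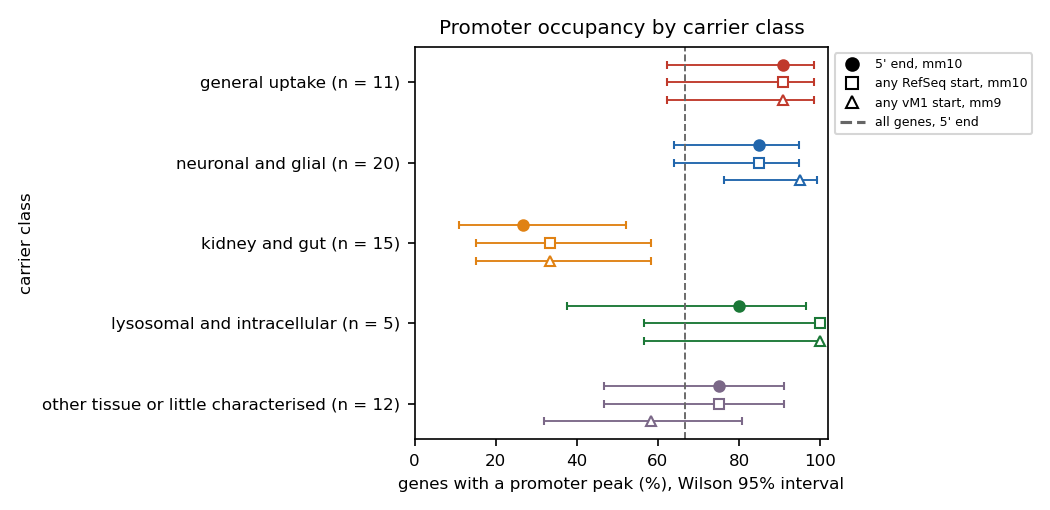
Share of genes with a promoter peak (horizontal axis, percent) in each carrier class (vertical axis), with Wilson 95% intervals that treat genes as independent. Filled circles use the 5′ end on mm10, squares any RefSeq start on mm10 and triangles any GENCODE vM1 start on mm9, and the dashed line is the share of all genes at the 5′ end (66.6%). The kidney and gut class lies below the line in all 3 settings.

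General uptake and neuronal carriers were marked at similar shares, and in the mm10 lists their median signals differed. The 10 marked carriers of general uptake had a median signal of 54.1, with a range of 21.9 to 63.0. For the 17 neuronal and glial carriers it was 21.9, with a range of 4.26 to 61.4, and for the 4 kidney and gut carriers 15.8, with a range of 4.63 to 37.0. The ranges overlapped. The medians of the first pair of classes were 43.2 and 21.1 in replicate 1 and 46.4 and 21.0 in replicate 2. In the pooled mm9 list they were 17.7 and 16.0, so the difference was nearly gone there. The kidney and gut median was 7.59 in replicate 1 and 7.91 in replicate 2, each over 6 marked carriers with weak peaks among them, and 12.4 on mm9. Against the median of all marked genes, 6 of the 10 general uptake carriers were higher, 2 of the 17 neuronal carriers and 0 of the 4 kidney and gut carriers.

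The general uptake carriers also had wider domains. Their median width was 6290 bp, against 1778 bp for neuronal, 1516 bp for kidney and gut and 1657 bp for lysosomal carriers. At the 5′ end, a domain of 5 kb or more covered 6 of the 10 general uptake promoters and 1 promoter of the carriers of other tissues (Slc38a4). None of the neuronal, kidney and gut or lysosomal promoters had such a domain there. Over all marked genes 13.5% had such a domain, and over the 45 marked transporters 15.6%. With any RefSeq start counted, 1 kidney and gut carrier had such a domain too (Slc7a7, 12637 bp), against 13.7% of all genes then marked. The median widths of the general uptake class were 5749 bp in replicate 1 and 6144 bp in replicate 2.

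**Figure D3:**
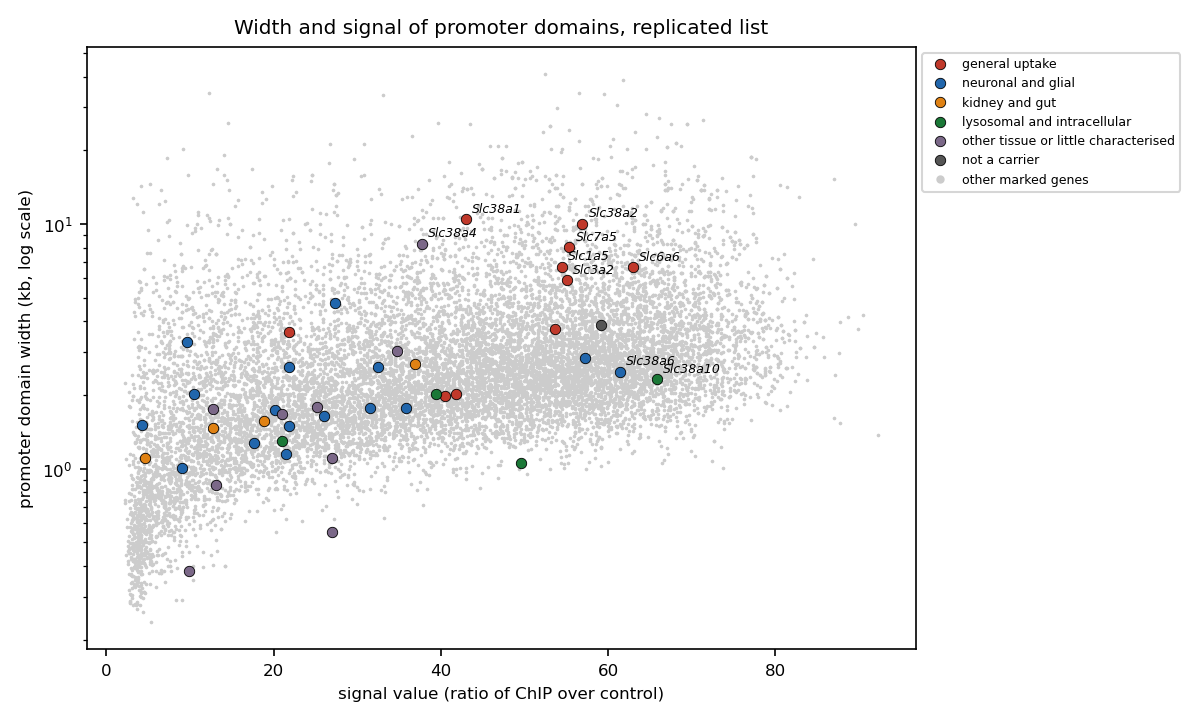
Promoter domain width (vertical axis, kb, log scale) against signal value (horizontal axis, ratio of ChIP over control) for 44 marked transporter genes, coloured by class, over all other marked genes in grey, in the replicated list. Of the 10 general uptake carriers 6 lie above the all-gene median signal (43.0) and 8 above the all-gene median width (2427 bp). At the 5′ end, Slc38a1 (10457 bp) and Slc38a2 (10032 bp) are the widest of the transporters.

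Among the general uptake carriers, the sodium-coupled system A carriers Slc38a1 and Slc38a2 (small neutral amino acids and glutamine) had the widest domains. They are neighbours on chromosome 15, at 96571418 to 96643438 and 96687392 to 96699728, both on the minus strand, and their domains are separate. Slc38a1 had a signal of 41.8 in replicate 1 and 34.2 in replicate 2 (mean 38.0 ± 5.41, SD, n = 2) and 43.0 in the replicated list. Its domain measured 10254 and 11215 bp in the replicates and 10457 bp in the replicated list, from 96633649 to 96644105. For Slc38a2 the signals were 52.1 and 50.5 (51.3 ± 1.13, SD, n = 2) and 56.9. Its widths were 9870, 6515 and 10032 bp, so the replicates differed more in width than in signal. The third carrier of this gene neighbourhood, Slc38a4, is described with the carriers of other tissues.

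The large neutral amino acid exchanger is a pair of the light chain Slc7a5 and the heavy chain Slc3a2, which also serves other Slc7 light chains. Slc7a5 (chromosome 8, 121881146 to 121907686) had signals of 51.9 and 46.1 in the replicates (49.0 ± 4.07, SD, n = 2) and 55.4 in the replicated list. Its domain measured 8720, 7650 and 8066 bp, and the start of a further gene, BC048644, lies within 1 kb of its 5′ end. Slc3a2 (chromosome 19, 8706882 to 8723369) has 2 promoter regions with separate domains. At the 5′ end, which lies within 1 kb of the start of the noncoding RNA gene Snhg1, the signals were 38.0 and 51.8, with 55.1 in the replicated list and a domain of 5908 bp. At the RefSeq start 9472 bp further downstream, whose sequence is printed above, they were 47.0 and 53.6, with 57.7 in the replicated list and a domain of 9844 bp. Which region carries the signal of the transporter transcript itself cannot be read from peak lists.

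The neutral amino acid exchangers Slc1a5 (glutamine) and Slc1a4 (alanine, serine and cysteine) were both marked. Slc1a5 (chromosome 7, 16781334 to 16798274) had signals of 50.7 and 46.6 in the replicates, 54.5 in the replicated list and a domain of 6698 bp. Slc1a4 had signals of 44.5 and 52.1, 53.6 in the replicated list and a narrower domain of 3711 bp. Slc6a6, the taurine carrier, had the highest signal of the class, with 59.0 and 51.8 in the replicates (55.4 ± 5.06, SD, n = 2) and 63.0 in the replicated list. Its domain measured 13153 bp in replicate 1 and 6993 bp in replicate 2, and 6671 bp in the replicated list.

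The cationic amino acid carrier Slc7a1 and the arginine and leucine exchanger Slc7a6 had compact domains. Slc7a1 had signals of 37.4 and 33.9, 40.5 in the replicated list and a domain of 1985 bp. Slc7a6 had signals of 37.2 and 36.5, 41.8 in the replicated list and a domain of 2020 bp. The creatine carrier Slc6a8, which lies on the X chromosome, had the lowest signal of the marked members of the class, with 21.0 and 18.4 in the replicates and 21.9 in the replicated list. Its domain measured 3612 bp. The opposite neighbour of Slc7a6, Slc7a6os, had signals of 54.3 and 51.8, 59.1 in the replicated list and a domain of 3861 bp, and the start of Prmt7 lies within 1 kb of its 5′ end.

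The separate mm9 lists, called as broader regions, gave another order within the class. All 10 were marked there as well. In the pooled mm9 list Slc7a1 had the highest ratio of the class (37.5, with 41.8 and 40.1 in the replicates), followed by Slc7a6 (27.7, with 30.5 and 28.7). Slc6a6 had the lowest (7.64, with 16.1 and 17.7) and Slc38a2 the next (9.12, with 12.6 and 9.24). Between them lay Slc1a5 (22.9, with 34.9 and 24.9), Slc3a2 (22.3, with 25.6 and 24.9), Slc6a8 (21.7, with 23.4 and 21.5), Slc38a1 (13.8, with 18.9 and 14.7), Slc1a4 (12.0, with 13.9 and 17.0) and Slc7a5 (10.7, with 12.1 and 13.1). Of the 6 with domains of 5 kb or more on mm10, Slc38a1, Slc38a2, Slc6a6 and Slc7a5 lay below the median ratio of all genes marked in that list, 15.9, so a ranking by signal holds within the mm10 lists only. Regions on mm9 remained wide for these genes, 14200 bp for both Slc38a2 and Slc7a5, 14000 bp for Slc6a6 and 11400 bp for Slc38a1.

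Slc7a11, the cystine and glutamate exchanger of system xc-, was the general uptake carrier without a promoter peak. The gene lies on chromosome 3 at 50364936 to 50499087 on the minus strand, and its RefSeq start lies at 50443613. No peak of the replicated list, the pooled list or the list of replicate 1 lay within 1 kb of either its 5′ end or that start, and none of the 3 mm9 lists held one at a vM1 start. Replicate 2 alone had a peak at the RefSeq start, at chr3:50443709-50443968, with a signal of 3.07. The nearest replicated peak to the gene's starts was 382 kb away. On mm9 the nearest region lay 103 kb from a vM1 start, with a ratio of 5.81 in the pool and 8.06 and 9.74 in the replicates. At the printed promoter, a pair of letters TGATGNAA, the amino acid response element that ATF4 and its partners are known to bind, face each other on opposite strands. They are in capitals in the stretch from base -75 to base -36 relative to the start, where -1 is the base before it.
Slc7a11: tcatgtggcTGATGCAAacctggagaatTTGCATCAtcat

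The same motif was searched on both strands in the windows from 250 bases before to 50 bases after each RefSeq start. It was present in 5 of 67 transporter windows (7.46%), from the genes Slc1a4, Slc6a21, Slc7a7 and Slc7a11, and in 3.6% of the 21263 windows of all genes. The antioxidant response letters TGACNNNGC, to which NRF2 binds, were in 11 of the 67 windows (16.4%), against 13.0% of all. The E box letters CACGTG were in 9 (13.4%), against 7.84%. In Slc1a4, which unlike Slc7a11 carried a strong peak, the first motif lies at the start itself, in the stretch from base -20 to base 10, again in capitals. A match is a description of letters and no evidence of binding.
Slc1a4: cagcgtgcctcctgcgTTGCATCAtctcca

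The glutamate carriers of neurons and glia were mostly marked with moderate signal. Slc1a2, the chief glial glutamate carrier, had signals of 31.3 and 31.9 in the replicates (31.6 ± 0.38, SD, n = 2) and 35.8 in the replicated list. Slc1a3, the other glial carrier, had 27.2 and 29.6, and 32.5 in the replicated list, with the start of the gene Gm31340 within 1 kb. The neuronal carrier Slc1a1 had 28.9 and 25.9, and 31.5 in the replicated list. The Purkinje cell carrier Slc1a6 had 20.1 and 17.9, and 21.4. Slc1a7, the carrier of retinal neurons, had no promoter peak in any of the lists.

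Among the carriers for inhibitory transmitters, Slc6a9, which takes up glycine mainly into glia, stood highest with 50.4 and 49.7 (50.1 ± 0.47, SD, n = 2), 57.2 in the replicated list and a domain of 2835 bp. On mm9 its ratio was 31.5, with 36.3 and 33.7 in the replicates. Slc6a5, the neuronal glycine carrier, was near the limit. It had a signal of 5.22 in replicate 1, no peak in replicate 2 and 4.26 in the replicated list at its 5′ end. At a RefSeq start 4716 bp further downstream it had 9.30, 9.33 and 10.2, and on mm9 8.95, with 16.4 and 8.84 in the replicates. The GABA carrier Slc6a11 had 9.30 and 9.07, and 9.06 in the replicated list.

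The monoamine carriers and the proline carrier also had promoter peaks in this stem cell line. The noradrenaline carrier Slc6a2 had a signal of 21.9 in the replicated list, the dopamine carrier Slc6a3 17.7 and the serotonin carrier Slc6a4 9.63. Slc6a4 had one of the wider domains of the class, 3281 bp, at one of its lowest signals. Slc6a7, the proline carrier, had the widest, with 5453 bp in replicate 1, 4482 bp in replicate 2 and 4735 bp in the replicated list. Its signals were 24.7 and 24.1 (24.4 ± 0.44, SD, n = 2), and 27.3, and its mm9 ratio was 8.66, with 9.97 and 10.5 in the replicates. The class member with the highest signal was the glutamine carrier Slc38a6, with 55.8 and 51.3 (53.5 ± 3.18, SD, n = 2), 61.4 in the replicated list, a domain of 2495 bp and an mm9 ratio of 16.4, with 23.8 and 21.3. The start of Trmt5, a tRNA methyltransferase gene, lies within 1 kb of its 5′ end, so the peak cannot be assigned to either gene alone.

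The remaining neuronal carriers lay between. Slc6a17, a vesicular neutral amino acid carrier, had a signal of 26.0, Slc6a15, a branched-chain amino acid and proline carrier, 21.9, Slc7a14 20.1 with the start of Gm15496 within 1 kb, and Slc7a10, an exchanger of small neutral amino acids in astrocytes, 10.5. Slc7a3 and Slc38a8 had no peak of the replicated list at the 5′ end. For Slc7a3, a cationic amino acid carrier on the X chromosome, a peak inside the gene at chrX:101081805-101085626 had a signal of 37.5, with its summit 5515 bp from the 5′ end. On mm9 that gene was marked at an annotated start, with a ratio of 19.0 in the pool and 21.2 and 22.6 in the replicates, over a region of 6200 bp. Slc38a8 had a weak peak in replicate 1 only (3.43) and in the pooled list (3.16), and on mm9 a ratio of 2.79 in the pool and 2.96 in replicate 1, with none in replicate 2.

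The kidney and gut carriers were the class with the fewest marked promoters. Slc43a2, a carrier of large neutral amino acids, had the highest signal, with 33.5 and 32.1 in the replicates (32.8 ± 0.99, SD, n = 2), 37.0 in the replicated list, a domain of 2682 bp and an mm9 ratio of 17.8, with 18.7 and 27.2. That domain did not reach the 5′ end. Slc6a20a, a proline and imino acid carrier, had signals of 18.4 and 15.5 (16.9 ± 1.99, SD, n = 2), 18.8 in the replicated list, a domain of 1571 bp and an mm9 ratio of 13.4, with 13.8 and 13.4. Slc7a8, a light chain that pairs with Slc3a2, had a signal of 12.8. Slc7a9, the light chain that pairs with Slc3a1 in the reabsorption of cystine, had 3.92 and 5.15, and 4.63 in the replicated list, with the start of Gm42378 within 1 kb.

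The other 11 kidney and gut carriers had no peak of the replicated list within 1 kb of the 5′ end. They include the cystine heavy chain Slc3a1, the neutral amino acid carriers of the brush border Slc6a19 and Slc6a18, the broad-range carrier Slc6a14, Slc36a2, Slc7a12 and Slc7a13, none of which had a promoter peak in any list. Weak peaks that are absent from the replicated list were seen for 3 more. Slc6a12, the betaine carrier, had a peak in replicate 1 only (2.69). Slc6a13, a GABA carrier of kidney and liver, had one in replicate 2 (3.34) and the pooled list (3.31), and Slc6a20b one in replicate 2 (3.11) and the pooled list (2.95). Slc6a20a and Slc6a20b are close copies, but their 300-base RefSeq windows held 25 and 1 CG dinucleotides. Whether reads that match both genes entered these peaks was not tested.

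Slc7a7, the light chain that releases cationic amino acids from epithelial cells, depends on the start used. At its 5′ end on chromosome 14, replicate 1 had a signal of 3.09, replicate 2 no peak and the replicated list none. At a RefSeq start 9865 bp further downstream the peak over it had signals of 34.5 in replicate 1, 20.0 in replicate 2 and 31.7 in the replicated list. The highest signal of replicate 2 at any RefSeq start of the gene was 24.9. Other RefSeq starts lie nearer the 5′ end, at 54417679 to 54417944. Within 1 kb of these lay a replicated peak with a signal of 29.0, 1803 bp from the 5′ end. A domain of 12637 bp in the replicated list, from 54405629 to 54418265, covered all of these RefSeq starts. On mm9 the ratio was 11.9, with 12.7 and 12.3 in the replicates, over 14000 bp. With any RefSeq start counted, 5 of the 15 kidney and gut carriers were marked (33.3%), and on mm9 5 as well.

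The 4 marked carriers of lysosomes and other organelles had domains narrower than the median of all marked genes, and 2 of them had signals above the median. Slc38a10, an ill-defined member of the glutamine carrier family, had the highest signal of all 64 genes, with 60.2 and 55.4 in the replicates (57.8 ± 3.36, SD, n = 2), 65.9 in the replicated list and a domain of 2327 bp. Its mm9 ratio was 17.8, with 24.4 and 13.9, and the start of Gm11769 lies within 1 kb. Slc36a1, the proton-coupled exporter of lysosomes, had 44.8 and 43.3 (44.0 ± 1.07, SD, n = 2), 49.6 in the replicated list and mm9 ratios of 22.0, 34.3 and 24.7. Its domain measured 1051 bp, narrower than that of any general uptake carrier. Slc38a7, the lysosomal glutamine exporter, had 35.2 and 29.6 (32.4 ± 3.97, SD, n = 2), 39.4 in the replicated list, a domain of 2011 bp and mm9 ratios of 12.5, 13.6 and 13.5. Slc36a4 had 21.0 in the replicated list.

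Slc38a9, the lysosomal carrier through which arginine is sensed by the growth regulator mTORC1, had no peak at its 5′ end. At a RefSeq start 4577 bp downstream it had signals of 31.1 in replicate 1 and 45.1 in replicate 2 (38.1 ± 9.87, SD, n = 2) and 48.0 in the replicated list, over a domain of 1452 bp. On mm9 it was marked with a ratio of 19.9, and 21.6 and 21.9 in the replicates. With that start counted, all 5 carriers of this class were marked.

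Among the carriers of other tissues or of little known function, Slc38a4, a system A carrier of liver and placenta, was the widest. It lies in the same gene neighbourhood as Slc38a1 and Slc38a2, on chromosome 15 at 96994816 to 97055956. Its signals were 36.4 and 32.0 in the replicates (34.2 ± 3.08, SD, n = 2) and 37.7 in the replicated list, its domain measured 8276, 7352 and 8307 bp, and its mm9 ratio was 9.87, with 11.3 and 10.3. Slc43a1, a carrier of large neutral amino acids, had 32.1 and 30.2 (31.1 ± 1.32, SD, n = 2), 34.7, domains of 4467, 2913 and 3023 bp, and mm9 ratios of 10.2, 12.6 and 11.8. All 3 of the system A genes of this neighbourhood thus had domains over 5 kb.

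The cationic amino acid carrier Slc7a2 and the gene Slc6a21 both had a signal of 27.0, Slc7a4 had 25.2, Slc38a11 13.1 and Slc43a3, a carrier of purine bases, 9.92. Slc6a21 had 24.7 and 22.8 in the replicates and a domain of 552 bp, but no region at its vM1 start on mm9. Slc38a3, a glutamine carrier of liver and brain, had a signal of 15.8 in replicate 2, 21.0 in the replicated list and no peak within 1 kb of the 5′ end in replicate 1. On mm9 it was marked in all 3 lists, with 10.5 in the pool and 12.6 and 10.2 in the replicates. Slc6a16 had signals of 11.9 and 11.0, 12.8 in the replicated list and widths of 1495 and 8689 bp in the replicates, and has no vM1 start on mm9. Slc36a3 and Slc7a15 had no peak of the replicated list at any start, and Slc38a5, a glutamine carrier, had one only in the pooled list (2.30). At a RefSeq start of Slc7a15, replicate 1 had a peak of 3.18 and the pooled list a peak of 3.31.

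**Figure D4:**
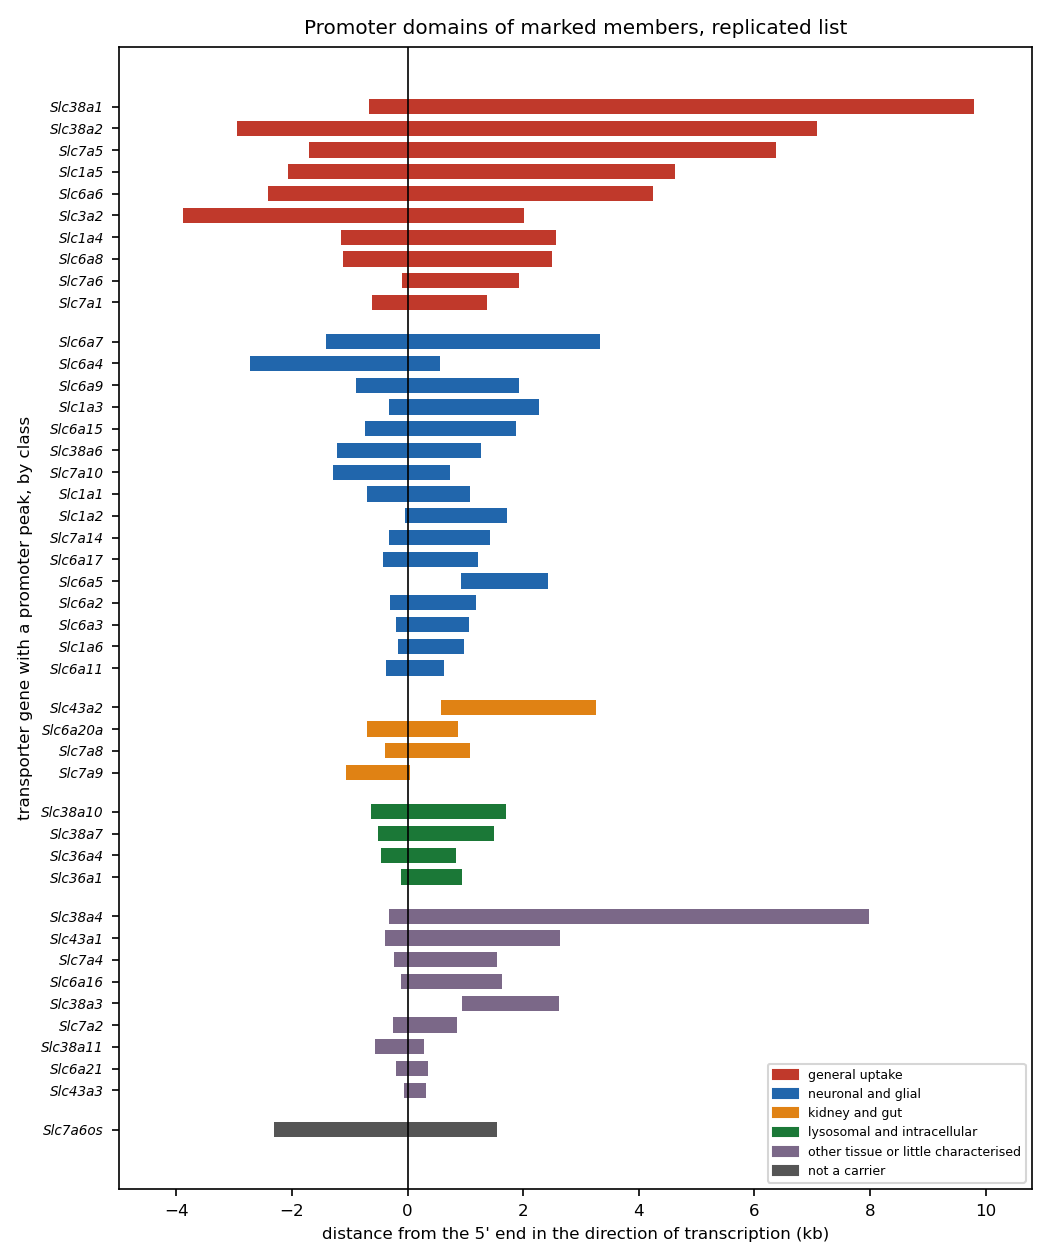
Promoter domains of 44 marked transporter genes (vertical axis, by class), drawn as distance from the 5′ end in the direction of transcription (horizontal axis, kb) in the replicated list. The vertical line is the 5′ end. Domains of the general uptake carriers Slc38a1, Slc38a2, Slc7a5 and of Slc38a4 reach more than 6 kb into the gene, and those of Slc43a2, Slc6a5 and Slc38a3 begin downstream of the line.

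The promoter domains of the marked transporters extended mainly into the gene, as did those of all genes. For 42 marked transporters the domain lay over the 5′ end, and in 36 of them (85.7%) it reached further downstream than upstream, against 80.2% of all 13195 such genes. The median reach was 538 bp upstream and 1520 bp downstream, against 797 and 1526 bp for all genes. For the 10 general uptake carriers the medians were 1422 bp upstream and 3407 bp downstream. The exception among them was Slc3a2, whose domain at the 5′ end reached further upstream, towards Snhg1. The summit of the highest peak lay downstream of the 5′ end in 38 of the 42 (90.5%), against 84.8% of all genes.

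By family, Slc1 had 6 of 7 genes marked at a median signal of 34.2, Slc43 3 of 3 at 34.7, and Slc38 8 of 11 at 41.2. The Slc6 family, which holds most of the neurotransmitter carriers, had 15 of 21 marked at a median signal of 21.9. The Slc7 family had 9 of 15 carriers marked at 25.2, Slc36 2 of 4 at 35.3 and Slc3 1 of 2 at 55.1. The light chains that pair with Slc3a2 did not have like values: Slc7a5 (55.4) and Slc7a6 (41.8) were high, Slc7a8 (12.8) and Slc7a10 (10.5) low, and Slc7a7 and Slc7a11 had no peak at the 5′ end. Of the pair Slc3a1 and Slc7a9, the first had no peak and the second a signal of 4.63. Over all genes the share marked was 66.6% and the median signal of marked genes 43.0, and the shares of Slc6 (71.4%), Slc7 (60.0%) and Slc38 (72.7%) lay near that background. Families held carriers of several classes, and their order was not tested.

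CG content was related to whether a transporter promoter was marked. Promoters were divided into high, intermediate and low CpG classes from the mm9 genome. The stretch ran from 1300 bp upstream to 200 bp downstream of the 5′-most vM1 start, which can differ from the 5′ end on mm10. Of the transporters with a high-CpG promoter all 20 were marked (96.4% of all genes with such a promoter), of those with an intermediate one 16 of 21 (86.0% of all), and of those with a low one 8 of 22 (27.7% of all). Slc6a16, marked as well, has no class. The kidney and gut class held 11 of the 22 low-CpG promoters, of which 1 (Slc7a9) was marked. In the 300-base RefSeq windows, the windows of transporters with a peak had a median of 19.5 CG dinucleotides and those without a peak a median of 5, against 20 and 2 for the windows of all genes.

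The values of high-CpG promoters alone were as follows, with 7 carriers in each of the larger classes. All 7 general uptake carriers of this kind were marked, at a median signal of 54.5, over domains of 6671 bp in the median. All 7 neuronal carriers of this kind were marked too, at a median signal of 26.0, over domains of 2017 bp in the median. All marked high-CpG genes had medians of 51.3 and 2764 bp. In signal, the neuronal carriers Slc1a1, Slc6a17, Slc6a7, Slc6a4, Slc6a11 and Slc7a10 lay below that median and Slc38a6 above it. In width, Slc6a7 and Slc6a4 lay above the median and Slc38a6 below it. In the pooled mm9 list the median signals were closer, 21.7 for general uptake, 14.7 for neuronal and 18.2 for all high-CpG genes, and the median widths were 9200, 2200 and 3600 bp. A low-CpG class did not go with the absence of a peak in every case, since Slc6a9 has that class and a signal of 57.2. The class is that of its vM1 start. The RefSeq window at its marked 5′ end held 10 CG dinucleotides, and 43.2% of all windows held fewer.

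Calls at the single 5′ end missed promoters that lie inside the gene. With any RefSeq start counted, 47 of the 64 genes were marked (73.4%) against 69.5% of all genes, Slc7a7 and Slc38a9 being the additions. On mm9 with every vM1 start, 47 were marked (73.4%) against 68.4%, with Slc7a3, Slc7a7, Slc38a8 and Slc38a9 gained and Slc6a16 and Slc6a21 lost. With none of the 3 settings was a peak found at 15 genes, 10 of them kidney and gut carriers. For 8 of the 45 marked genes the start of another gene lay within 1 kb, so that the peak could belong to either.

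Genes that sense amino acids or respond to their lack were marked at higher shares than the carriers, which was not tested. All of them have high- or intermediate-CpG promoters. Of all genes with such promoters 96.4% and 86.0% were marked, and the shares of both lists lay close to these values. Of 23 genes through which mTORC1 senses amino acids 22 were marked (95.7%, against 66.6% of all genes), with a median signal of 54.8. The strongest were Rptor, a subunit of mTORC1 (81.8), and Lamtor2, part of its lysosomal anchor (72.2). The exception at the 5′ end was Rragb, a small GTPase gene on the X chromosome, with a signal of 29.2 at another RefSeq start. All 13 genes of the amino acid starvation response were marked, at a median signal of 45.3 and over domains of 4565 bp in the median. Of these, 5 had domains of 5 kb or more. Over all marked genes the median width was 2427 bp, and 13.5% had such a domain. The strongest were Atf5 (67.7) and Nfe2l2 (62.1), both transcription factors.

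Of 20 amino acid carriers and accessory subunits of other families, 14 were marked (70.0%), with a median signal of 44.8, close to the 66.6% and 43.0 of all genes. The strongest were Slc66a1, a lysosomal exporter of cationic amino acids (71.9), and Slc25a38, a mitochondrial glycine carrier (67.0). The unmarked ones included Cltrn, which brings Slc6a19 and its relatives to the cell surface in the kidney, the peptide carrier Slc15a2 and the vesicular glutamate carrier Slc17a8. Cltrn was thus unmarked together with Slc6a18 and Slc6a19 themselves. Cltrn, Slc6a18 and Slc6a19 each have a low-CpG promoter, and only 27.7% of all genes with such a promoter were marked. Slc17a8 has a low-CpG promoter too, and Slc15a2 an intermediate one.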

How the data were processed

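H3K4me3 ChIP-seq of 2 biological replicates of 1 group was analysed from peak lists. The deposited mm10 lists (1 per replicate, pooled, replicated) give the authors' signal value, each peak's ratio of ChIP over control, with −log10 p- and q-values. The deposited mm9 lists give a ratio of unstated denominator, with the authors' p-value and q-value. Peak caller and aligner: not given in the sources used here. Read depth is unknown, and peaks too weak for a list's threshold are not seen.

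Members, classes and lists were chosen with earlier results of these data known. Of 21887 protein-coding genes (GRCm38.p6 table), 21536 had a strand, from the RefSeq promoter table (17492), or from GENCODE vM1 by name (3649) or synonym (395). The promoter table held 46 of the 64 transporters. On mm9, 1201 genes, among them 1 transporter, had no vM1 start and counted as unmarked. High-CpG promoters had a 500 bp window with an observed-to-expected ratio over 0.75 and GC over 55 percent, and low-CpG promoters none over 0.48. Values are given for all general uptake carriers, the 2 strongest and 2 widest of each other class and genes whose calls differed between lists, and for pathways the 2 strongest and up to 4 unmarked genes; most other members have the replicated value, and some genes the rule takes are not reported here. Medians and Wilson intervals were computed with Python 3.11.15 and scipy 1.17.1, with no test between genes. Scripts were tested on simulated data. Alternatives covered replicates, lists, thresholds, windows, starts, builds, joining and CpG class.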

Additional observations from a re-analysis of the deposited data

How the results depend on the processing

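No paired analysis was possible because there was 1 group. The main count of marked transporters was 45. Under every alternative except high-CpG genes only, it lay between 41, with the summit inside the window, and 50, in the pooled list. With high-CpG genes only, fewer genes were examined: 20 marked in all, 7 general uptake, 7 neuronal, 2 kidney and gut, 2 lysosomal and 1 of other tissues. The pooled list gave 7 marked kidney and gut carriers against 4. Each replicate alone gave 47 and 46 marked in all and 6 and 6 kidney and gut carriers. The median signal of marked transporters, 27.0, ranged from 24.0 to 24.2 with 1 replicate left out, and was 25.6 in the pooled list, 14.5 on mm9 (15.9 for all marked genes) and 27.3 with any RefSeq start, an alternative chosen after seeing the data. The median width, 2011 bp, ranged from 1986 to 1988.5 bp with 1 replicate left out. It was 2014 bp in the pooled list and with a 500 bp window, 2018.5 bp with a 2 kb window, 2800 bp on mm9, 1985 bp without joining and 2495 bp when peaks under 3 kb apart were joined. A q-value under 1e-05 changed no call. A 500 bp window lost Slc38a3, Slc43a2 and Slc6a5, and summits in place of overlap lost Slc43a1 as well. Replicates of 1 line cannot show variation between lines, and the unknown depth limits calls of weak peaks.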
